A study of Mus musculus with 7 samples.

Results

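The smooth muscle contractile genes are 10 genes that give smooth muscle cells the means to shorten: the actins Acta2 and Actg2, the myosin heavy chain Myh11, the thin filament proteins Tagln, Cnn1, Smtn and Lmod1, the filament and anchoring proteins Des and Synpo2, and Myocd, a transcriptional coactivator of the others. They were chosen by name. The Ensembl identifiers of the 48-hour gene count table were paired with symbols through the GENCODE mouse annotation, and the rows with these symbols were kept, 10 of 56065. All 10 had at least 10 counts in total over the libraries, the limit below which a gene was not tested and which 25209 of the 56065 genes passed.

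The libraries were made from whole extrahepatic bile ducts (EHBDs), the ducts that carry bile to the intestine, of adult wild-type mice of both sexes, labelled C57BL/6 and given as C57BL/6J in the study's methods, collected 48 hours after surgery. For the 4 libraries labelled BDL (bile duct ligation, 2 male and 2 female) a ligature closed the EHBD at its duodenal end during a laparotomy, so that bile could not drain. For the 3 sham libraries (2 male and 1 female) the abdomen was opened without a ligature. The labels do not name the animals, but the study counts its 48-hour groups in mice and in the same numbers as the libraries here, so each library was taken as 1 mouse. The comparison asks how the contractile genes of the obstructed duct differ from those of the unobstructed duct.

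In smooth muscle, a rise in calcium lets calmodulin activate myosin light chain kinase, the phosphorylated myosin pulls on actin filaments, and the filaments are held together at dense bodies and tied to desmin. Serum response factor (SRF) binds short CArG boxes near many of these genes, and myocardin, the product of Myocd, binds SRF and drives their transcription. In the EHBD smooth muscle lies in the walls of blood vessels and of the duct itself and is gathered into a sphincter at the duodenum, while Acta2 and Tagln are also made by activated fibroblasts.

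Library totals were 48882420 to 61291821 estimated counts. Levels are given as counts-per-million (CPM) of the library after scaling by the trimmed mean of M-values (TMM), with factors between 0.608 in sham 3 and 1.17 in BDL 1. The duct epithelium was present, with 2122 ± 486 CPM of the cytokeratin gene Krt19 in BDL libraries and 842 ± 90.8 CPM in sham libraries (SD, n = 4 and n = 3). RNA of neighbouring organs was present as well. The 14 pancreatic acinar genes listed made up 0.00243 to 10.3% of the counts in BDL libraries and 6.98 to 29.8% in sham libraries. The 12 hepatocyte genes listed made up 1.23% in BDL 1 and 4.21% in BDL 4, at most 0.0125% in BDL 2 and BDL 3, and 0.0509 to 0.155% in sham libraries.

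The contractile genes moved in both directions. By edgeR's quasi-likelihood test with sex as a term and Benjamini-Hochberg adjustment over all 25209 genes, called at an adjusted p under 0.05, Myocd and Acta2 were higher in BDL, and Synpo2, Myh11 and Lmod1 were lower. Cnn1, Des, Actg2, Smtn and Tagln did not pass. The 2 of 10 higher genes stand beside 11.8% of all tested genes called higher, and the 3 of 10 lower genes beside 11% called lower. For the same 5 genes the 4 BDL libraries did not overlap the 3 sham libraries, against 36.6% of all tested genes without overlap in either direction. The number of higher genes was 1 without BDL 1, without sham 1, without sham 2 or against a 2-fold change. The number of lower genes was 1 without sham 1, 5 in DESeq2 and 5 with no limit on low counts. The median log2 fold change of the 10 genes was -0.39, and that of all tested genes was -0.0075. The median of the 10 was -0.057 without sham 3, -0.24 without BDL 2, -0.62 without sham 2, -0.68 with BDL 1 and BDL 4 left out and -0.15 with BDL 2 and BDL 3 left out. Since the libraries are whole tissue, fewer cells of a type and less RNA per cell cannot be told apart for any of these genes.

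**Figure D1:**
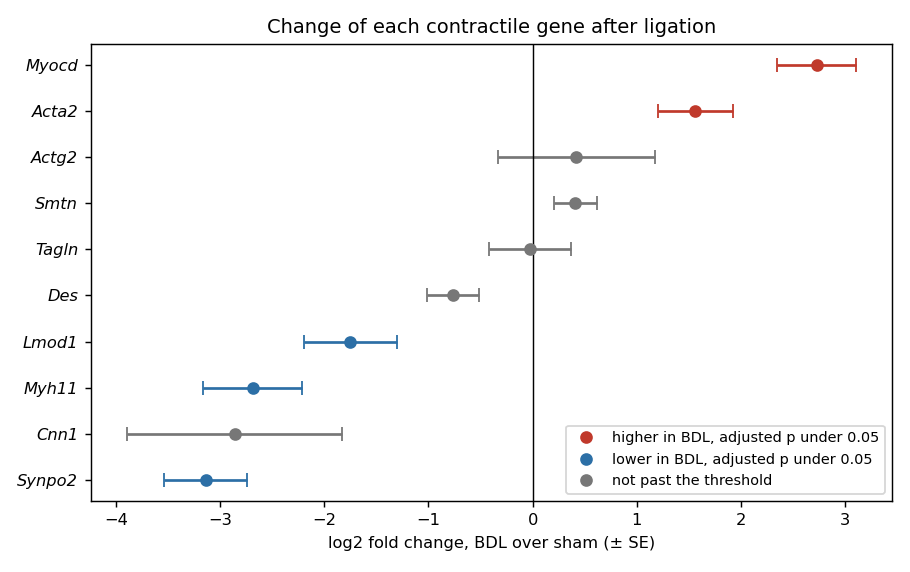
The log2 fold change of each contractile gene, BDL over sham, on the horizontal axis, with bars for ± 1 SE of the edgeR fit over 7 libraries. Myocd (2.73) and Acta2 (1.56) lie to the right in red, Synpo2 (-3.14), Myh11 (-2.69) and Lmod1 (-1.75) to the left in blue, and the 5 grey genes did not pass the threshold, with Cnn1 at -2.86 and a wide error.

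Acta2 encodes smooth muscle alpha-actin, the main actin of vascular smooth muscle. The gene lies on the minus strand of chromosome 19 (GRCm39, chr19:34217737-34232990). Acta2 stood at 478.5, 378.6, 353.3 and 523.3 CPM in BDL libraries 1 to 4, against 115.8, 101.8 and 238.5 CPM in sham libraries 1 to 3. Every BDL library was above every sham library, and sham 3 was the highest of its group. The mean was 433.4 ± 80.7 CPM in BDL and 152.0 ± 75.2 CPM in sham libraries (SD, n = 4 and n = 3), a 2.95-fold difference with a log2 fold change of 1.56 (SE 0.36) and an edgeR adjusted p of 0.0208. The adjusted p was 0.0812 without BDL 1, 0.105 without sham 1, 0.0612 without sham 2, and 0.0557 with BDL 1 and BDL 4, which held hepatocyte RNA, left out together. Tested against a 2-fold change, it was 0.210, and over all 18 alternatives it lay between 2.84e-05 and 0.210.

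Actg2 encodes smooth muscle gamma-actin, the actin that predominates in the muscle of the gut wall (chr6:83489887-83513551, minus strand). Its level was 35.6, 25.8, 26.2 and 39.2 CPM in BDL libraries, against 32.9, 2.11 and 35.3 CPM in sham libraries. The groups overlapped, with sham 1 and sham 3 inside the BDL range and sham 2 far below all the others. The log2 fold change was 0.42 (SE 0.75, adjusted p = 0.722, edgeR), and without sham 2 it was -0.13. The sequences of the actins are alike, so the chance of miscounted reads was checked on the main transcripts. Of the 2758 stretches of 31 bases in the Acta2 transcript none occurred in that of Actg2, and 26 (0.943%) occurred in at least 1 of the other 5 actin transcripts. For Actg2, 10 of 1607 (0.622%) did.

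Myh11 encodes the smooth muscle myosin heavy chain, the motor of the thick filament and the member least often made by other cell types (chr16:14012399-14109236, minus strand). It stood at 39.4, 15.5, 17.2 and 29.99 CPM in BDL libraries, against 174, 78.2 and 243.9 CPM in sham libraries. The highest BDL library, BDL 1, was below the lowest sham library, sham 2. The mean was 25.5 ± 11.3 CPM in BDL and 165.4 ± 83.2 CPM in sham libraries (SD, n = 4 and n = 3), and the level was 6.43-fold higher in sham (log2 fold change -2.69, SE 0.48, adjusted p = 0.00804, edgeR). The adjusted p was 0.0589 without sham 1 and passed the threshold in the other 17 alternatives.

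Among the thin filament proteins, Tagln and Smtn differed least between the groups. Tagln encodes transgelin (SM22-alpha), an actin-binding protein of differentiated smooth muscle that activated fibroblasts also make (chr9:45840909-45847404, minus strand). Its level was 58.7, 35.8, 33.3 and 64.8 CPM in BDL libraries, against 33.2, 39.9 and 83.5 CPM in sham libraries. The groups overlapped across nearly their whole range, and the log2 fold change was -0.02 (SE 0.39, adjusted p = 0.974, edgeR). Smtn encodes smoothelin, an actin-associated protein of contractile smooth muscle (chr11:3467520-3490612, minus strand). It stood at 42.7, 47.9, 58.4 and 64.6 CPM in BDL libraries, against 35.9, 32.4 and 47.8 CPM in sham libraries. Only BDL 1 lay within the sham range, and the log2 fold change of 0.41 (SE 0.20) did not pass (adjusted p = 0.190, edgeR).

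Lmod1, which encodes leiomodin 1, a nucleator of actin filaments in smooth muscle, was lower in BDL (chr1:135252509-135295907, plus strand). Its level was 2.88, 1.58, 1.004 and 2.58 CPM in BDL libraries, against 6.63, 4.58 and 9.497 CPM in sham libraries. The groups did not overlap, and the difference (log2 fold change -1.75, SE 0.44, adjusted p = 0.0294, edgeR) was lost in 6 of the 18 alternatives, the most of the 5 calls. The adjusted p was 0.0578 without BDL 1, 0.0853 without BDL 2, 0.133 without sham 1, 0.106 without sham 3, 0.0945 with BDL 2 and BDL 3 left out together and 0.203 against a 2-fold change.

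Cnn1 encodes calponin 1, which binds actin and slows the myosin motor (chr9:22010512-22020926, plus strand). It stood at 6.67, 0.587, 0.774 and 3.58 CPM in BDL libraries, against 29.3, 3.36 and 30.4 CPM in sham libraries. The low value of sham 2 fell between those of BDL 3 and BDL 4, so the groups overlapped. The log2 fold change of -2.86 (SE 1.03) was the second most negative of the 10, and its adjusted p of 0.0872 (edgeR) was above the threshold. It passed at 0.0141 with BDL 1 and BDL 4 left out together, at 0.04998 without BDL 1 alone, at 0.046 in DESeq2 and at 0.00199 with no limit on low counts.

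Des encodes desmin, the intermediate filament of muscle cells (chr1:75320511-75345223, plus strand). Its level was 39.4, 33.4, 42.6 and 47.8 CPM in BDL libraries, against 85.3, 37.2 and 77.5 CPM in sham libraries. Sham 2 again lay within the BDL range while the other sham libraries were above it. The log2 fold change was -0.76 (SE 0.25, adjusted p = 0.0665, edgeR). Without sham 2 the adjusted p was 0.0119, and it was 0.0474 under upper quartile scaling, 0.0171 in DESeq2 and 0.0168 with no limit on low counts.

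Synpo2 encodes synaptopodin 2 (myopodin), an actin-bundling protein of the dense bodies and Z-discs of muscle (chr3:122870168-123029798, minus strand). It had the most negative change of the 10 genes. Synpo2 stood at 4.05, 3.83, 4.02 and 5.41 CPM in BDL libraries, against 56.2, 13.6 and 42.7 CPM in sham libraries. The BDL libraries lay close together and below all sham libraries, which spread more widely. The mean was 4.33 ± 0.729 CPM in BDL and 37.5 ± 21.8 CPM in sham libraries (SD, n = 4 and n = 3), and the level was 8.81-fold higher in sham (log2 fold change -3.14, SE 0.40, adjusted p = 0.00239, edgeR). The call held in all 18 alternatives, with adjusted p up to 0.0258.

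Myocd encodes myocardin, a coactivator of SRF restricted to cardiac and smooth muscle (chr11:65067387-65160828, minus strand). It was the most increased of the 10 genes. Its level was 14.1, 17.7, 8.82 and 14.5 CPM in BDL libraries, against 1.75, 1.43 and 3.41 CPM in sham libraries. The lowest BDL library was above the highest sham library. The mean was 13.8 ± 3.68 CPM in BDL and 2.20 ± 1.06 CPM in sham libraries (SD, n = 4 and n = 3), a 6.61-fold difference (log2 fold change 2.73, SE 0.38, adjusted p = 0.0033, edgeR). The call held in all 18 alternatives, with adjusted p up to 0.0221. Myocd rose in the same libraries in which Myh11, Synpo2 and Lmod1 fell.

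**Figure D2:**
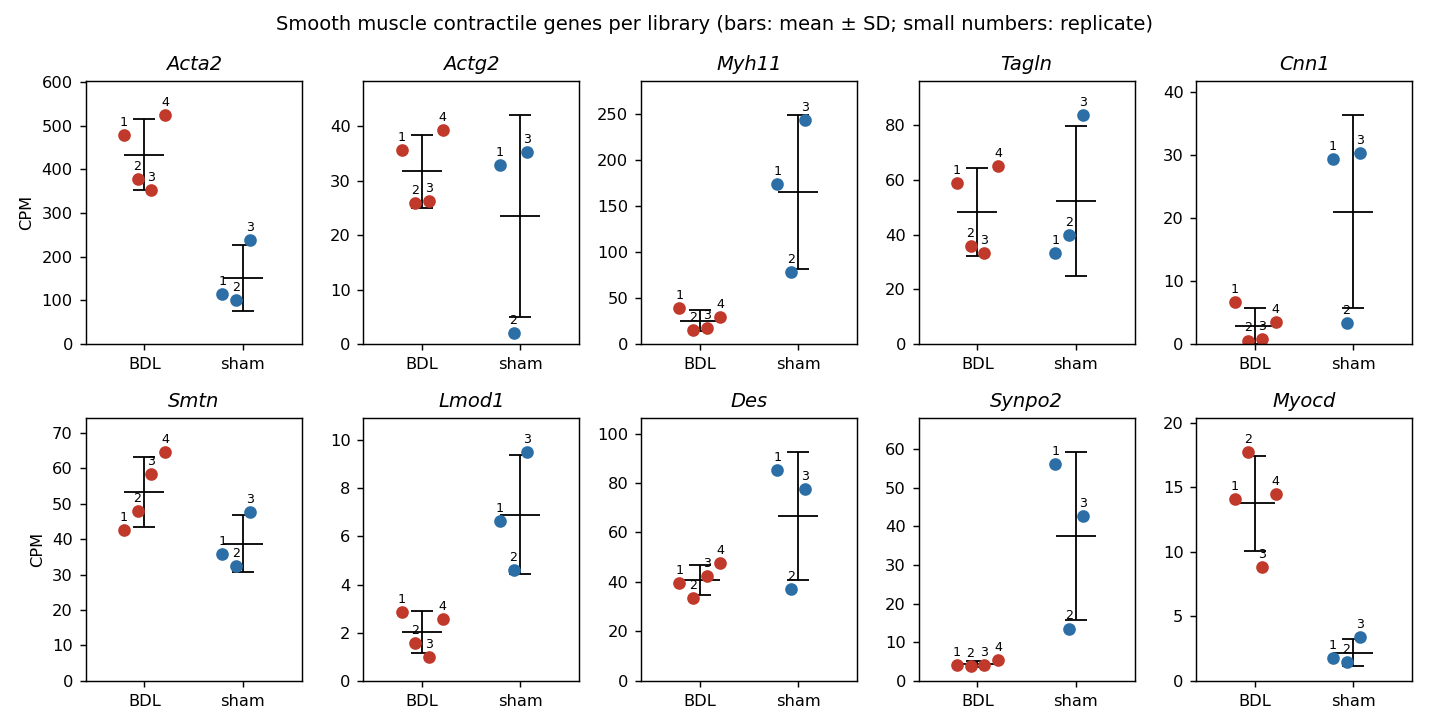
Level of each contractile gene in CPM (vertical axes, each from 0) in the 4 BDL libraries (red, left) and the 3 sham libraries (blue, right), numbered by replicate, with the mean and ± 1 SD. Acta2 and Myocd are higher and Myh11, Lmod1 and Synpo2 lower in every BDL library than in any sham library, and sham 2 is the lowest sham library for every gene but Tagln.

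The sequences before the start sites of the 2 higher genes and of Tagln are shown because they hold matches to the CArG box, the SRF site through which myocardin acts. The box is a pair of C, a core of A or T and a pair of G, and reads the same on both strands. Either strict boxes or relaxed ones, with 1 core base that is not A or T, were searched. Boxes are in capitals, with 10 bases of flank on each side, 5′ to 3′ along the minus strand on which all 3 genes lie.
Acta2, chr19:34232848-34232857, 84 bases before the RefSeq start: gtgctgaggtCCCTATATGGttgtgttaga
Acta2, chr19:34232798-34232807, 34 bases before the RefSeq start: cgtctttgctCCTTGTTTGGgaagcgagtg
Tagln, chr9:45847459-45847468, 64 bases before the GENCODE start: agggtcctgcCCATAAAAGGtttttcccgg
Myocd, chr11:65161029-65161038, 210 bases before the GENCODE start: cttcgggcatCCGATTTAGGggtgccagtg
The Tagln box is strict, and the other boxes are relaxed. Positions are on GRCm39. The Acta2 boxes come from the 250 bases before the RefSeq start (table of build GRCm38.p6), whose sequence matched GRCm39 at 1 place. That window spans the start of the longer GENCODE transcript, and both boxes lie downstream of it. In windows of 300 bases before the GENCODE starts, 1 of the 10 contractile genes held a strict box and 2 held a strict or relaxed one, against 1.69% and 10.4% of 21586 protein-coding genes. Of the 6 contractile genes found in the RefSeq table only Acta2 held a box, with 2 relaxed ones, which 0.67% of 32851 RefSeq windows hold.  The 3 lower genes held none in these windows, nor did Actg2, Cnn1, Smtn and Des, which says only that the letters are not there. Acta2 held none in its GENCODE window either, and Myh11 was not found in the RefSeq table.

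Per kilobase of exon, the scale on which levels can be compared between genes, Acta2 was the most abundant of the 10 genes in both groups, at 134.3 ± 25.0 CPM per kilobase in BDL and 47.1 ± 23.3 CPM per kilobase in sham libraries (SD, n = 4 and n = 3). Tagln was the next in both, at a mean of 23.6 CPM per kilobase in BDL and 25.5 CPM per kilobase in sham libraries. Myh11 ranked 6 in BDL libraries, at 3.36 CPM per kilobase, and 3 in sham libraries, at 21.8 CPM per kilobase. Myocd ranked 7 in BDL libraries, at 1.93 CPM per kilobase, and last in sham libraries, at 0.308 CPM per kilobase. Myocd was thus above Cnn1, Lmod1 and Synpo2 in mean level in BDL libraries. In BDL 1 the order was the other way for Cnn1, at 2.44 CPM per kilobase against 1.98 CPM per kilobase for Myocd. The ranks were the same with the length of the longest transcript.

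The summed level of the 10 genes overlapped between the groups, and the shares of Acta2 and Myh11 in their summed CPM per kilobase did not. The summed level of the 10 genes was 722, 561, 546 and 796 CPM in BDL libraries, against 571, 315 and 812 CPM in sham libraries. Sham 3 was the highest of all 7 libraries and sham 2 the lowest on this TMM scale. As a share of all counts, without TMM, the 10 genes made up 0.0494% in sham 3, below 0.0607% in sham 1. Sham 2 was again the lowest, at 0.0365%, and BDL libraries held 0.0565 to 0.0853%. Without Acta2 the sums were 243.5, 182.1, 192.3 and 272.5 CPM in BDL libraries, against 455.4, 212.7 and 573.9 CPM in sham libraries. Acta2 made up 67.1, 69.4, 67.0 and 66.5% of the summed CPM per kilobase in BDL libraries, against 27.3, 39.2 and 35.9% in sham libraries. Myh11 made up 2.35, 1.21, 1.39 and 1.62% in BDL libraries, against 17.4, 12.8 and 15.6% in sham libraries. The groups did not overlap for either share, and they overlapped for the shares of Actg2, Tagln and Smtn.

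**Figure D3:**
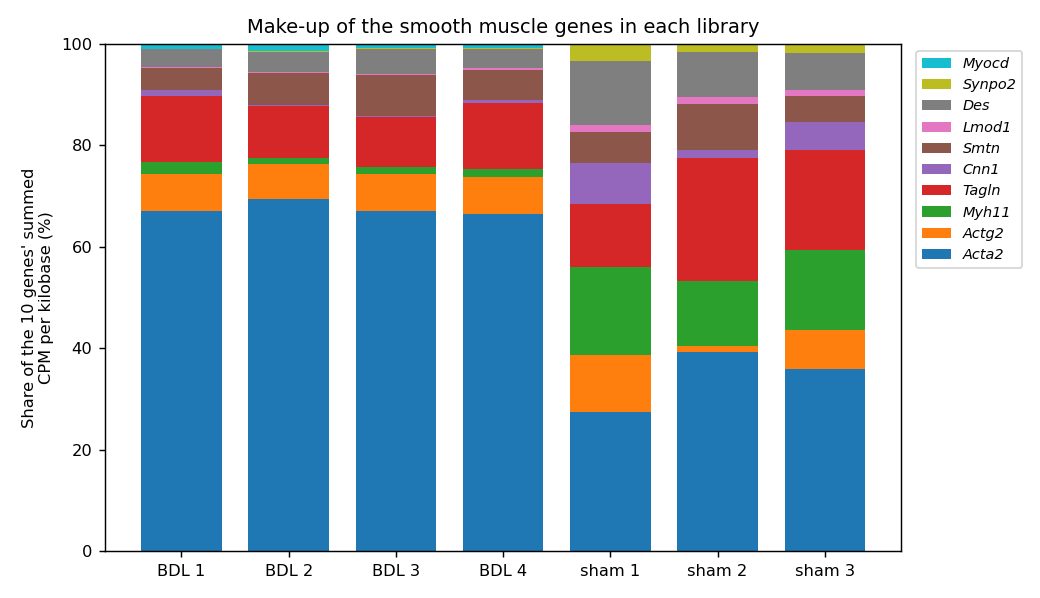
Share of each contractile gene in the summed CPM per kilobase of the 10 genes (vertical axis, percent), with a stacked bar for each of the 4 BDL libraries and then the 3 sham libraries. Acta2 (dark blue, bottom) takes 66.5 to 69.4% in BDL and 27.3 to 39.2% in sham libraries, and the bands of Myh11 (green), Cnn1 (purple) and Synpo2 (olive) are narrow in BDL.

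Ratios of counts within a library do not depend on scaling. The ratios of Acta2 to Myh11 and to Actg2 were planned, and 5 others were chosen after the counts were seen. Each was tested by an exact two-sided permutation of the 7 libraries over 35 assignments, where the smallest p that 4 against 3 libraries can give is 0.0571, so none could pass 0.05. The Acta2 to Myh11 ratio was 12.1, 24.4, 20.5 and 17.4 in BDL libraries, against 0.665, 1.302 and 0.978 in sham libraries. It was 19.1-fold higher in BDL, and the exact p was the smallest possible (0.0571, 0.08 adjusted over the 7 ratios). The Acta2 to Actg2 ratio was 13.4, 14.7, 13.5 and 13.3 in BDL libraries, against 3.52, 48.2 and 6.75 in sham libraries. The BDL libraries lay close together for this pair of actins while the sham libraries spread on both sides of them (exact permutation p = 0.629), and the log2 difference of 0.39 was -0.39 without sham 1, 1.49 without sham 2 and 0.076 without sham 3.

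Of the 5 ratios chosen after the counts were seen, 4 did not overlap between the groups and had the same smallest exact p. Acta2 to Tagln was 8.15, 10.6, 10.6 and 8.07 in BDL libraries, against 3.49, 2.55 and 2.86 in sham libraries, a 3.15-fold difference. Acta2 to Cnn1 was 24.1-fold and Myocd to Myh11 41.1-fold higher in BDL. Cnn1 to Actg2 was 0.187, 0.0227, 0.0295 and 0.0914 in BDL libraries, against 0.891, 1.59 and 0.860 in sham libraries. In sham 2, where Cnn1 itself overlapped the BDL libraries at 3.36 CPM, Actg2 was also low, at 2.11 CPM. The high ratio of that library thus does not show a high level of Cnn1. Acta2 to Actb, the cytoplasmic beta-actin, was 0.139, 0.130, 0.160 and 0.227 in BDL libraries, against 0.239, 0.129 and 0.400 in sham libraries. That ratio overlapped (exact permutation p = 0.4), and Actb itself was higher in BDL by 2.20 on the log2 scale (SE 0.29, adjusted p = 0.00267, edgeR).

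**Figure D4:**
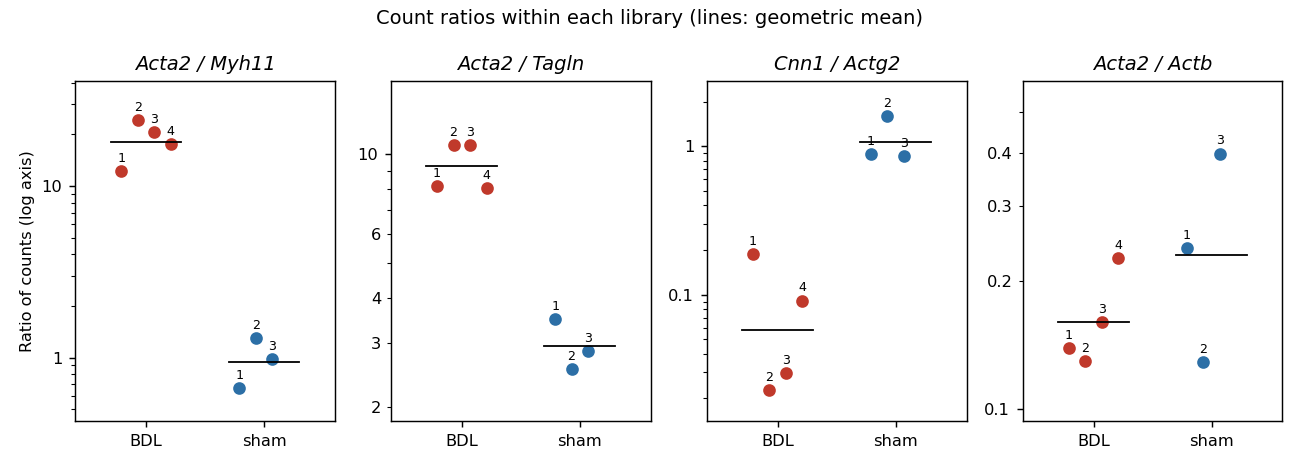
Ratio of counts within each library (vertical axes, log scale) for 4 pairs of genes, in the 4 BDL libraries (red, left) and the 3 sham libraries (blue, right), numbered by replicate, with lines at the geometric mean. Acta2 to Myh11, Acta2 to Tagln and Cnn1 to Actg2 separate the groups, and Acta2 to Actb does not.

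The libraries of a group kept an order across the contractile genes. Sham 2 was the lowest sham library for 9 of the 10 genes, all but Tagln. Sham 3 was the highest for 8, and sham 1 for Des and Synpo2. These ranks are of TMM-scaled levels, and sham 3 had the smallest factor, 0.608. Before scaling, Myh11 had 9037 of 48882420 counts in sham 1 and 9091 of 61291821 in sham 3. Among BDL libraries, BDL 1 and BDL 4 were both above BDL 2 and BDL 3 for 7 of 10 genes, all but Smtn, Des and Myocd. BDL 1 and BDL 4 were also the libraries with hepatocyte RNA, and those with the lowest acinar shares, 0.164% and 0.00243%, against 5.97% in BDL 2 and 10.3% in BDL 3. With BDL 1 and BDL 4 left out, 1 gene was higher and 4 were lower in BDL. With BDL 2 and BDL 3 left out, 2 were higher and 2 were lower.

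Some markers of the intestine, a neighbouring organ with much smooth muscle of its own, also differed between the groups. Of 8 intestinal epithelial genes tested of 10 listed, 4 were lower in BDL and 0 higher, beside 11% and 11.8% of all tested genes. Their summed level was 44.4 to 3718 CPM in BDL libraries and 50.5 to 501 CPM in sham libraries, and most of the highest sum was Apoa4, which hepatocytes also make, at 3632 CPM in BDL 4. The enterocyte genes Alpi and Sis had fewer than 10 counts. Fabp2 went the other way without passing (adjusted p = 0.135, edgeR). It stood at 6.74, 0.752, 0.0987 and 45.8 CPM in BDL libraries, against 0.713, 0.373 and 0.295 CPM in sham libraries. Vil1 had a log2 fold change of 0.05 and did not pass (adjusted p = 0.891, edgeR). Fabp2 and Vil1 were named after their values were seen. Itln1, which encodes the goblet and Paneth cell lectin intelectin 1, stood at 0.0753, 0, 0.0165 and 0 CPM in BDL libraries, against 214.5, 1.72 and 0.349 CPM in sham libraries. The Paneth cell defensin gene Defa24 stood at 150.0 CPM in sham 1 and at no more than 0.357 CPM in any other library. Sham 1 stood apart in these secretory genes but not in all of the list. Lyz1, the Paneth cell lysozyme gene, stood at 0.602, 0.330, 1.05 and 0.545 CPM in BDL libraries, against 22.4, 10.8 and 10.8 CPM in sham libraries, so that all sham libraries were above all BDL libraries. Without sham 1, 1 of the 10 contractile genes was higher, 1 was lower and 1 of the intestinal genes was lower in BDL. Adipocyte genes (3 of 6 lower, 0 to 4 without single libraries) and mesothelial genes (5 of 6 lower and 1 higher in each of these fits) moved with the groups as well. The part of these tissues in the contractile results was not tested beyond that.

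Of the 11 genes listed for enteric neurons and interstitial cells of Cajal, which lie beside the muscle of hollow organs, 2 were lower in BDL and 0 higher, with a median log2 fold change of -2.53. These calls stand beside 11% of all tested genes called lower. The summed level of the 11 genes was 158 to 383 CPM in BDL libraries and 412 to 473 CPM in sham libraries. Ano1, named because it made up most of these sums, stood at 232, 359, 169 and 136 CPM in BDL libraries. In sham libraries it stood at 335, 390 and 335 CPM, so that the groups overlapped, and it did not pass (adjusted p = 0.120, edgeR). Chat, the enzyme that makes acetylcholine, stood at 0.271, 0.0550, 0.0494 and 0 CPM in BDL libraries, against 6.74, 2.35 and 2.98 CPM in sham libraries (log2 fold change -5.46, SE 1.06, adjusted p = 0.0113, edgeR). Etv1, a transcription factor of the interstitial cells of Cajal, stood at 11.4, 8.98, 16.4 and 9.96 CPM in BDL libraries, against 57.8, 47.1 and 38.7 CPM in sham libraries. DESeq2 called 9 of the 11 genes lower. The sham libraries were above all BDL libraries for 7 of these genes, beside 18% of all tested genes, and the part of nerve and muscle of neighbouring organs in the result was not tested.

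Other genes of the contractile apparatus were followed by list. The calls in this and the following lists stand beside 11.8% of all tested genes called higher and 11% called lower. Of 23 other genes of the thin filament and the dense body, 9 were higher and 7 were lower in BDL, with a median log2 fold change of 0.0017. Pdlim7, which encodes a PDZ and LIM domain protein of actin bundles, stood at 156, 139, 119 and 89.2 CPM in BDL libraries, against 22.6, 20.3 and 24.3 CPM in sham libraries (log2 fold change 2.52, SE 0.20, adjusted p = 0.00059, edgeR). Palld, which encodes the bundling protein palladin, stood at 177, 188, 173 and 223 CPM in BDL libraries, against 56.1, 54.7 and 56.7 CPM in sham libraries. Neither overlapped between groups. The other 7 higher genes were Csrp1, Actn1, Flna, Vcl, Cald1, Tpm2 and Tpm1, with log2 fold changes of 0.98 to 1.79. They did not overlap between groups either, and which cells made them was not tested.

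The 7 lower genes of this list had log2 fold changes of -3.48 to -0.58. Pdlim3, a partner of alpha-actinin, stood at 2.98, 0.495, 1.53 and 1.56 CPM in BDL libraries, against 22.6, 6.64 and 25.5 CPM in sham libraries (log2 fold change -3.48, SE 0.67, adjusted p = 0.0111, edgeR). Synm, the desmin partner synemin, stood at 7.59, 6.86, 9.15 and 11.9 CPM in BDL libraries, against 46.6, 26.5 and 34.6 CPM in sham libraries (log2 fold change -2.11, SE 0.18, adjusted p = 0.000649, edgeR). Neither overlapped between groups. Ldb3, Fhl1, Cav1 and Dmd, the dystrophin gene, had log2 fold changes of -2.02, -1.76, -1.19 and -0.58. Without BDL 1, 4 genes of the list were lower, and with BDL 2 and BDL 3 left out 4 were. Against a 2-fold change, 4 were higher and 3 were lower.

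Of 11 genes of the myosin light chain and its kinase and phosphatase, 2 were lower in BDL and 0 higher, and the median log2 fold change was 0.06. Ppp1r12b, a regulatory subunit of myosin phosphatase, stood at 24.3, 25.2, 23.3 and 18.3 CPM in BDL libraries, against 56.1, 40.3 and 47.5 CPM in sham libraries (log2 fold change -1.07, SE 0.18, adjusted p = 0.00651, edgeR). Mylk, the light chain kinase gene, stood at 46.2, 45.2, 47.9 and 49.0 CPM in BDL libraries, against 136, 45.2 and 98.5 CPM in sham libraries. Sham 2 lay at the BDL level, as it did for Des, and the adjusted p was 0.0455 (log2 fold change -0.9995, SE 0.29). Rhoa and Arhgef1, which act upstream of the phosphatase, had adjusted p of 0.0675 and 0.0796. The list had 1 lower gene when any 1 of the BDL libraries, sham 1 or sham 3 was left out, and 0 against a 2-fold change.

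Of 17 genes of calcium handling, ion channels and cyclic GMP signalling, 1 was higher and 5 were lower in BDL, with a median log2 fold change of -0.49. Gucy1a1, a subunit of the nitric oxide receptor guanylyl cyclase, stood at 7.32, 7.17, 7.64 and 6.34 CPM in BDL libraries, against 40.2, 37.1 and 36.0 CPM in sham libraries (log2 fold change -2.41, SE 0.15, adjusted p = 0.00031, edgeR). The spread within each group was small. Irag1, a target of the cyclic GMP-dependent kinase, fell by 1.42 on the log2 scale, Itpr1, a calcium release channel, by 0.92, and Casq2, a calcium store protein, by 2.81. Pln, the pump inhibitor phospholamban, fell by 3.59 and is named because it completes the 5. Atp2a2, the pump it inhibits, was higher, at 461, 573, 406 and 529 CPM in BDL libraries, against 314, 234 and 267 CPM in sham libraries, and did not pass without BDL 1, without BDL 2 or without any 1 of the sham libraries.

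Of 16 receptor genes that act on smooth muscle tone, 5 were lower in BDL and 0 higher, with a median log2 fold change of -1.66. Vipr2, a receptor for vasoactive intestinal peptide, stood at 1.596, 1.37, 2.14 and 1.90 CPM in BDL libraries, against 7.15, 7.89 and 6.87 CPM in sham libraries (log2 fold change -2.12, SE 0.26, adjusted p = 0.00209, edgeR). Chrm3, the muscarinic receptor through which acetylcholine contracts smooth muscle, stood at 2.26, 1.85, 4.62 and 1.77 CPM in BDL libraries, against 13.9, 9.23 and 7.97 CPM in sham libraries (log2 fold change -2.09, SE 0.35, adjusted p = 0.00655, edgeR). The prostacyclin receptor gene Ptgir fell by 2.26, the adrenergic receptor gene Adra2a by 2.27 and the muscarinic receptor gene Chrm2, named to complete the 5, by 2.16 on the log2 scale. In all 5 the groups did not overlap. Every BDL library was below every sham library for 7 of the 16 genes, beside 18% of all tested genes. Leaving out single libraries gave 4 or 5 lower genes, and the test against a 2-fold change gave 3.

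Srf and the myocardin-related genes Mrtfa and Mrtfb did not pass the test. Srf was at 14.5 ± 1.52 CPM in BDL and 9.65 ± 1.58 CPM in sham libraries (SD, n = 4 and n = 3, log2 fold change 0.61, adjusted p = 0.0649, edgeR), above all sham libraries in every BDL library but not past the threshold. Mrtfa and Mrtfb, the myocardin-related factors that answer to actin assembly, had log2 fold changes of 0.14 and 0.09 (adjusted p = 0.652 and 0.742). These 3 were named after their values were seen. Of the 16 genes of SRF cofactors and muscle transcription factors, 2 were higher and 2 were lower in BDL. Every BDL library was above every sham library for 6 of them and below for 2, beside 18.7% and 18% of all tested genes. Fhl2, a LIM protein that binds SRF and competes with its cofactors, stood at 39.6, 43.1, 20.0 and 25.9 CPM in BDL libraries, against 14.2, 6.28 and 4.05 CPM in sham libraries (log2 fold change 2.004, SE 0.4995, adjusted p = 0.0274, edgeR). Foxf2, a mesenchymal forkhead factor, rose by 1.33, Mef2c, a muscle factor, fell by 0.98, and the gut mesenchyme factor Nkx2-3 fell by 1.58 on the log2 scale. Leaving out single libraries gave 0 to 3 higher genes (0 without BDL 1, BDL 2, sham 2 or sham 3) and 1 to 3 lower genes (1 without BDL 1, BDL 2 or sham 2).

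Genes of the actomyosin of non-muscle cells were higher as a group. Of 14 genes tested, 11 were higher and 0 lower in BDL, beside 11.8% and 11% of all tested genes, and the median log2 fold change was 1.37. Actb stood at 3435, 2919, 2205 and 2306 CPM in BDL libraries, against 485, 790 and 597 CPM in sham libraries. Tpm4, Cfl1 and Tpm3, which encode tropomyosins and the filament-severing protein cofilin, rose by 1.97, 1.83 and 1.57 on the log2 scale. Myh9, a non-muscle myosin heavy chain gene, was at 321 ± 96.8 CPM in BDL and 126 ± 11.96 CPM in sham libraries (SD, n = 4 and n = 3). Myh9 was thus higher where Myh11 was lower. Of the other non-muscle heavy chain genes listed, Myh10 rose by 0.54 on the log2 scale (adjusted p = 0.0403, edgeR). Myh14 overlapped between the groups and did not pass (log2 fold change -0.15, adjusted p = 0.732, edgeR). Myh9, Myh10 and Myh14 were named after their values were seen. The count of higher genes was 8 to 11 without single libraries and 3 against a 2-fold change.

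**Figure D5:**
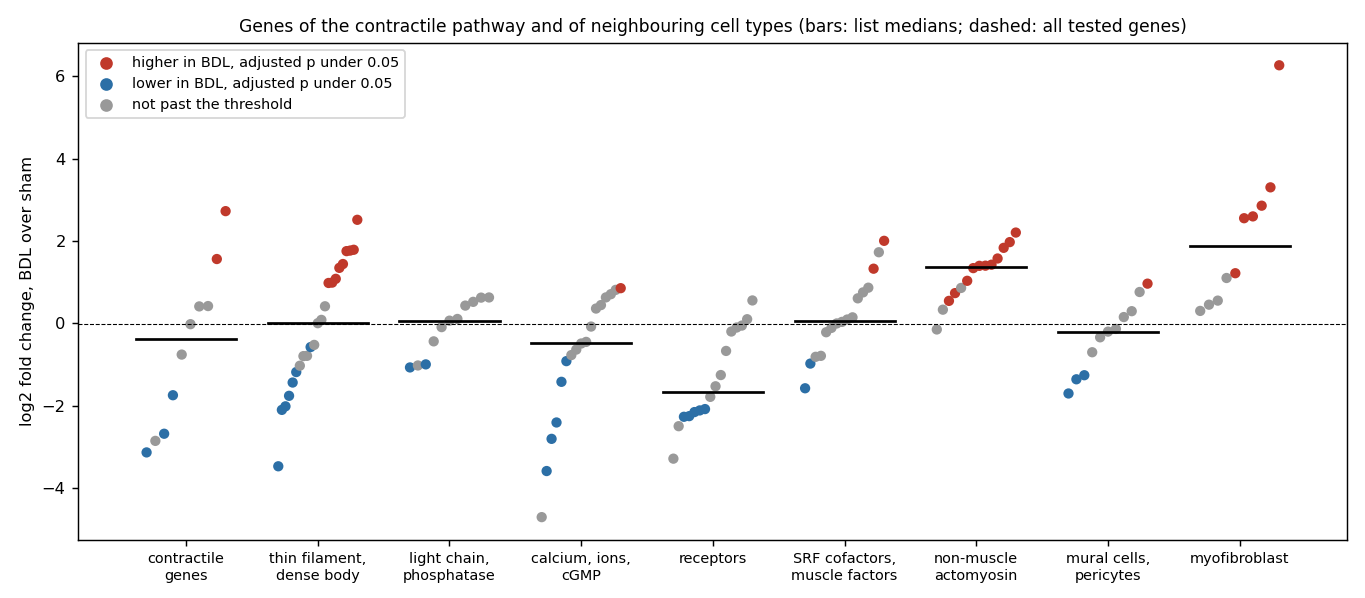
Log2 fold change, BDL over sham (vertical axis), of each tested gene in the contractile set and in 8 lists of related genes, sorted within a list, with bars at list medians and a dashed line at the median of all tested genes. Red points are higher and blue points lower in BDL by edgeR at an adjusted p under 0.05. The non-muscle actomyosin list (median 1.37) and the myofibroblast list (median 1.89) hold no blue points, the receptor list (median -1.66) holds no red ones, and the contractile and thin filament lists hold both.

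Cells other than smooth muscle cells that can make Acta2 were followed by their own markers. Of 10 genes listed for myofibroblasts, 6 were higher and 0 lower in BDL, beside 11.8% and 11% of all tested genes. The list median was 1.89 on the log2 scale. The summed level of the 10 genes was 7872 to 9787 CPM in BDL libraries and 2281 to 3599 CPM in sham libraries. Postn, the matrix protein periostin, stood at 294, 370, 323 and 321 CPM in BDL libraries, against 50.3, 59.0 and 54.7 CPM in sham libraries (log2 fold change 2.60, SE 0.18, adjusted p = 0.000383, edgeR). Cthrc1 and Tnc, further matrix genes of activated fibroblasts, rose by 2.86 and 3.30, and the collagen gene Col1a1 rose by 2.55. None of the listed genes was at 0 in BDL, and their part in the level of Acta2 was not tested.

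Of 11 genes listed for mural cells and pericytes, 1 was higher and 3 were lower in BDL, with a summed level of 251 to 302 CPM in BDL libraries and 328 to 370 CPM in sham libraries. Rgs5, a regulator of G protein signals in pericytes, stood at 38.1, 33.6, 46.2 and 41.3 CPM in BDL libraries, against 152, 117 and 107 CPM in sham libraries (log2 fold change -1.71, SE 0.14, adjusted p = 0.000582, edgeR). Cspg4 fell by 1.26 and Rgs4 fell by 1.36, and Kcnj8, the pericyte potassium channel gene, rose by 0.96. Leaving out BDL 1, sham 2 or sham 3 left 1 lower gene, and the higher one did not pass without BDL 1, BDL 2, BDL 3, sham 1 or sham 3. The endothelial genes, which mark the vessels that such cells surround, were lower for 4 and higher for 0 of 8 tested. The 4 lower genes were below all sham libraries in every BDL library, beside 18% of all tested genes. The summed levels of the 8 genes overlapped (769 to 1257 CPM in BDL and 838 to 1219 CPM in sham libraries). Pecam1, named because it made up most of these sums, was at 747 ± 221 CPM in BDL and 638 ± 171 CPM in sham libraries (SD, n = 4 and n = 3). It did not pass (adjusted p = 0.564, edgeR).

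Striated muscle was nearly absent. Of its 13 listed genes 10 were tested, with 1 higher and 2 lower in BDL, beside 11.8% and 11% of all tested genes. The summed level of the list was 3.74 to 8.05 CPM in BDL libraries and 3.67 to 32.2 CPM in sham libraries. Myh1, a fast skeletal myosin gene, was at 0 in all 4 BDL libraries and at no more than 0.402 CPM in sham libraries. Ckm, the muscle creatine kinase gene, reached 0.0165 CPM in BDL and 2.87 CPM in sham libraries. These were the 2 lower genes. Mylpf, the 1 higher gene, stood at 1.87, 1.47, 1.45 and 1.58 CPM in BDL libraries, against 0.616, 0.793 and 0.751 CPM in sham libraries. Its log2 fold change was 1.18 (SE 0.35, adjusted p = 0.0463, edgeR). The cardiac troponin gene Tnnt2 stood at 4.396, 3.34, 3.78 and 1.74 CPM in BDL libraries, against 6.55, 1.69 and 27.9 CPM in sham libraries, and made up most of the sum in sham 3.

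Over the 7 libraries the 10 genes fell into sets with a similar order of levels. The correlation of log2 CPM with Myh11 was 0.97 for Lmod1, 0.95 for Synpo2, 0.93 for Cnn1 and 0.82 for Des (Pearson r over the 7 libraries, which differ by surgery, given as a description). That with Acta2 was 0.96 for Myocd and 0.82 for Smtn, and between Acta2 and Myh11 it was -0.66. Genes outside the 10 came closer still, so these values do not set the 10 genes apart. The nearest gene was Shmt2 for Acta2 (r = 0.994), Ncapd3 for Myocd (r = 0.994) and Dmpk for Myh11 (r = 0.993). Of 10172 genes with at least 10 CPM on average, the one most like the mean of the 10 genes was Myl9 (r = 0.94), the light chain that partners Myh11, followed by C2cd2l, Akap11, Pik3cb, Herpud1, Ell2, Luc7l and Chd7 with r of 0.85 to 0.90. Myl9 itself stood at 104, 75.2, 71.5 and 102 CPM in BDL libraries, against 97.4, 64.7 and 121 CPM in sham libraries, and did not pass (log2 fold change -0.09, SE 0.26, adjusted p = 0.822, edgeR). The mean over the 10 genes mixes opposite patterns, and the likeness describes the order of libraries within the groups.

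No effect of sex was detectable in the contractile genes. None of the 10 genes differed between male and female libraries by edgeR or DESeq2 (0 at an unadjusted p under 0.05, smallest edgeR adjusted p 0.946), beside 0.0198% of all tested genes. For the interaction of sex with surgery the count was also 0 by edgeR, with 0 at an unadjusted p under 0.05 and a smallest adjusted p of 0.735. With 1 female sham library and 3 residual degrees of freedom that fit can show only large differences.

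The library kit does not mark the strand, so reads where genes overlap on opposite strands cannot be told apart. Of the contractile genes, Tagln overlaps Pcsk7, whose total count was 60.9% of that of Tagln, Smtn overlaps Selenom (80.8%), Acta2 overlaps Stambpl1 (5.28%) and Cnn1 overlaps Elof1, whose 20465 counts were 569% of those of Cnn1. The low counts of Cnn1 in BDL 2 and BDL 3, under 1 CPM, bound what Elof1 reads could have added there. No other contractile gene had an overlapping gene on the opposite strand with more than 1 count.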

How the data were processed

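RNA of whole EHBDs was converted to libraries with the SMART-Seq mRNA kit, which copies polyadenylated RNA along its length and marks no strand. The authors counted trimmed reads with Salmon (version not given in the sources used here) against GENCODE vM33 on GRCm39 and summed transcripts to genes with tximeta, and the deposited values are estimated counts written as whole numbers, with no normalization. All 7 value columns belong to the 7 labelled libraries. Group came from the treatment label and sex from the sample description.

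Identifiers were named through GENCODE M39 (GRCm39), which matched 55563 of 56065. The 502 without a match held 0.0335% of counts and stayed in the tests. The quasi-likelihood F test of edgeR 4.0.16 (R 4.3.3, TMM scaling) was run on genes with at least 10 counts in total (terms for sex and surgery, 4 residual degrees of freedom, Benjamini-Hochberg adjustment, threshold 0.05). The script was tested on simulated data. SE is the log2 fold change divided by the root of F. Levels per kilobase use the union of exons. Libraries of a group differed well beyond sampling noise (chi-square per degree of freedom at least 202.3), so none was counted as a repeat. At these totals the lowest count of any of the 10 genes in any library was 32 (Cnn1 in BDL 2), and intervals between libraries, not counting error, limit the precision.

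All 10 contractile genes were described in every library. From each related list up to 4 tested genes with the smallest p were named, with any called gene that moved against the majority of its list's calls, and others are marked in the text. The values of 1 gene that this rule names are not reported here. The 8 genes most like the mean of the 10 were ranked among genes of at least 10 CPM. The members and lists were chosen with earlier results of these data known. Alternatives were RLE and upper quartile scaling, filterByExpr or no filter, DESeq2 1.42.0, limma-voom (limma 3.58.1), no sex term, removal of neighbouring-tissue markers before scaling, a test against a 2-fold change and each library left out, and, chosen after seeing the data, BDL 1 with BDL 4 and BDL 2 with BDL 3 left out.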

Additional observations from a re-analysis of the deposited data

Results flagged for a closer look

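Among the values of the contractile genes within the 4 BDL libraries, 1 gene had a library far from the rest. Synpo2 stood at 5.41 CPM in BDL 4 and between 3.83 and 4.05 CPM in the other BDL libraries, so that the gap between BDL 4 and the nearest library was 0.862 of the whole range, above Dixon's 95% critical value for a group of this size. Chance flags about 1 in 20 groups, and 10 genes were looked at. All 4 libraries were below the lowest sham library, at 13.6 CPM. Groups of 3, such as the sham libraries, were not tested.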

How the results depend on the processing

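Of the 10 contractile genes, Synpo2, Myocd and Smtn kept their direction and their side of the threshold under all 18 alternatives. The number higher in BDL (2) was 1 against a 2-fold change and with BDL 1 and BDL 4 left out, and 1 to 2 without single libraries. The number lower (3) was 5 in DESeq2 and with no filter, and 1 to 4 without single libraries. The log2 fold change of Tagln (-0.02) was 0.0064 in limma-voom, 0.37 with BDL 2 and BDL 3 left out and -0.39 to 0.39 without single libraries. That of Actg2 (0.42) was -0.13 to 1.44 without single libraries, the lowest without sham 2, and the log2 ratio of Acta2 to Actg2 (0.39) was -0.39 without sham 1 and 1.49 without sham 2. The median of the 10 genes (-0.39) was -0.62 to -0.057 without single libraries. Causes of these changes were not tested, except that tests with fewer libraries have fewer degrees of freedom.

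Of all tested genes, 602 were higher and 758 lower against a 2-fold change, 4188 were lower in DESeq2 and 1692 were lower with BDL 2 and BDL 3 left out. Without single libraries 1678 to 3152 were higher and 1431 to 2883 lower. Upper quartile scaling moved the median log2 fold change of all genes to -0.13, and the share of calls that were higher was then 42.8%, against 51.7% with TMM. Of the counts of calls in the related lists, 463 stayed within 1.5 times their value and 113 did not, most of them in lists with few calls. Over all alternatives, the number lower was 3 to 8 in the thin filament list, 3 to 6 in the calcium list, 3 to 7 in the receptor list and 2 to 9 in the enteric neuron list, and the number higher was 4 to 9 in the thin filament list, 3 to 12 in the non-muscle list and 5 to 6 in the myofibroblast list.

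No paired analysis was possible because the groups share no replicate numbers in the labels. With 4 against 3 libraries and a wide spread among sham libraries, differences such as those of Cnn1 and Des could not be settled here, and a p above the threshold does not show equal levels.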
